A study of Mus musculus with 7 samples.

Results

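The miR-29 family was followed in mouse CD4 T cells on 7 one-colour microarrays of small RNA. Its members were all array probes whose target carries bases 2 to 8 of mature mouse miR-29a-3p, the seed by which a miRNA recognises its messenger RNA targets and by which miRNAs are grouped into families. This rule found 11 of 1874 probes. Of these, 6 match mouse miR-29a-3p, miR-29b-3p or miR-29c-3p, and 5 carry the seed but match no mouse mature miRNA. All cells carried the DO11.10 T cell receptor, a transgenic receptor that recognises an ovalbumin peptide, on the Balb/c strain, and came from pooled spleen and lymph nodes of mice aged 6 to 8 weeks. The naive group (2 arrays) held CD25- CD44 low cells of DO11.10 mice with functional Rag2. The WT host group (2 arrays) and the sOVA host group (3 arrays) held CD44 high DO11.10 cells that had been taken from Rag2-/- donors and recovered 5 days after transfer into wild-type Balb/c mice or into sOVA mice, which make ovalbumin as a self antigen. Per the treatment protocol, both kinds of host were injected 24 h after transfer with LPS-activated dendritic cells carrying ovalbumin peptide, although the sample titles describe the immunization of the hosts differently. Naive and activated cells thus differed in activation, donor Rag2 genotype, transfer and sort, and these cannot be told apart. The labels do not state whether replicates were separate pools. The p-values therefore reflect spread between samples that may be technical.

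MicroRNAs are short RNAs that guide Argonaute proteins to matching sites in messenger RNAs and lower the output of those messengers. The miR-29 family is known in T cells for restraining the interferon-gamma response, through the interferon-gamma messenger itself and through the transcription factors T-bet and Eomes, and outside the immune system for targeting collagens and DNA methyltransferases. In RefSeq (build GRCm38.p6) the family is made from 4 hairpins in 2 clusters. Mir29a (chr6:31062660-31062747, minus strand) lies 275 bases from Mir29b-1 (chr6:31063023-31063093, minus strand). Mir29b-2 (chr1:195037040-195037120, plus strand) lies 426 bases from Mir29c (chr1:195037547-195037634, plus strand). The mature miR-29b-3p of both its hairpins is identical, so its signal cannot be assigned to a cluster, whereas miR-29a-3p marks the chromosome 6 cluster and miR-29c-3p the chromosome 1 cluster.

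The mature sequences are shown because the 3 members differ at few bases, which sets how far a hybridisation probe can tell them apart. Capitals mark the shared seed, and the sequences are from RefSeq, GRCm38.p6.
miR-29a-3p: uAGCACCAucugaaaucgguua
miR-29b-3p: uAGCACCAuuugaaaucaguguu
miR-29c-3p: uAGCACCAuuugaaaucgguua
Counted from the 5′ end, miR-29a-3p and miR-29c-3p differ by 1 substitution, C10U. From miR-29a-3p to miR-29b-3p there are 4 (C10U, G18A, U21G and A22U) over the bases both have, besides the extra base at the 3′ end of miR-29b-3p. From miR-29b-3p to miR-29c-3p there are 3 (A18G, G21U and U22A). The array held 1 probe for miR-29a-3p (UC1004861), 2 for miR-29b-3p and 3 for miR-29c-3p. The longest probe of each matches the whole mature miRNA: UC1004865 for miR-29b-3p and UC1004871 for miR-29c-3p. The other 3 probes read shorter 3′ ends, as their targets show.
UC1004864, miR-29b-3p: uAGCACCAuuugaaaucagugu
UC1004862, miR-29c-3p: uAGCACCAuuugaaaucgguu
UC1004870, miR-29c-3p: uAGCACCAuuugaaaucggu
The probes of 1 miRNA share a target and are not replicates. For tests they were merged, with the brightest probe standing for each miRNA, which gave 3 miR-29 features among 342 tested.

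The arrays differed in brightness. The 75th percentile of signal over the 253 probes detected on all arrays, to which each array was scaled, lay between 9281 and 15743 on 5 arrays. It was 3591 on the array of WT host replicate 2 and 2729 on that of sOVA host replicate 3. Between 309 and 467 probes were detected per array. Of 3 lymphocyte miRNAs, miR-142a-3p and miR-342-3p were matched to probes and were detected on all 7 arrays. Their summed level was 2.57 and 2.33 in naive cells, 2.07 and 1.31 in the WT host, and 2.18, 1.53 and 0.80 in the sOVA host, so every activated array lay below both naive arrays. miR-142a-3p alone went from 2.22 and 1.89 in naive cells to between -0.43 and 1.55 in activated cells. The fall of the sum was not shared by miR-342-3p, which was 0.35 and 0.40 in naive cells. It was 1.05 and 0.10 in the WT host, and 0.68, 0.92 and 0 in the sOVA host. miR-223-3p, a myeloid miRNA, stood at -3.04 and -2.80 on the naive arrays (log2 signal relative to each array's 75th percentile) and between -6.60 and -4.99 on the activated arrays. It was not detected on WT host replicate 2 (-6.34) or sOVA host replicate 1 (-6.60). Of 2 erythroid markers 1 was detected, miR-451a, and their summed level was 0.94 on sOVA host replicate 3 and -4.08 to -0.96 on the other arrays. The stromal markers, of which 2 of 4 were matched and 1 was detected, summed to -3.18 on sOVA host replicate 3 and to between -6.81 and -5.25 elsewhere. All 6 epithelial markers were detected on at least 1 array and none on all 7, with sums of -4.64 to -3.15. Among them, miR-205-5p was detected on sOVA host replicates 1 and 2 only, at -4.87 and -4.08, and was not well above background on the other 5 arrays (-10.6 to -6.49). The endothelial marker was detected on 1 array and the neural marker matched, miR-9-5p, on none, while no liver or muscle marker was matched. The part of these markers and of array brightness in the results below was not tested. All 7 arrays shared a slide, with 4 arrays in its row 1 (naive 1, WT host 1, sOVA host 1 and 2) and 3 in row 2 (naive 2, WT host 2, sOVA host 3). The 2 dimmest arrays both lay in row 2, as did the brightest, so the differences of the 3 miR-29 features are also given with the row as a block. In bulk samples such as these, fewer cells holding a miRNA and less miRNA per cell cannot be told apart.

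miR-29a-3p, the member by which the family was defined here, was lower in activated than in naive cells. Its log2 signal relative to the 75th percentile of the array was 3.16 and 2.77 for naive cells, 1.59 and 0.72 for the WT host, and 1.74, 1.68 and 0.22 for the sOVA host. Every activated array lay below both naive arrays. The group means were 2.96 ± 0.28 (SD, n = 2) for naive, 1.15 ± 0.61 (SD, n = 2) for WT host and 1.21 ± 0.86 (SD, n = 3) for sOVA host. On the scanner's linear scale, before scaling, this was 106105 and 107063 on the naive arrays against 3189 to 35632 on the activated arrays. With both hosts combined at equal weight, miR-29a-3p fell by 1.78 on the log2 scale (SE 0.51, adjusted p = 0.0470, limma), or 3.43-fold. The call was lost when any single array other than sOVA host replicate 3 was left out (adjusted p between 0.0546 and 0.300) and held without that array (-1.53, adjusted p = 0.0118, limma). Without the 2 dimmest arrays the difference was -1.32 (adjusted p = 0.0163, limma). Against the single hosts the values were -1.81 ± 0.61 (SE) for WT host (adjusted p = 0.0872, limma) and -1.75 ± 0.55 (SE) for sOVA host (adjusted p = 0.0688, limma), and neither passed. With the slide row as a block, the differences from naive passed in the WT host (-1.81, adjusted p = 0.0151), the sOVA host (-1.91, adjusted p = 0.00998) and both hosts together (-1.86, adjusted p = 0.00662, limma). In that fit 10.8%, 13.7% and 15.8% of all features were called lower in these 3 comparisons. Within row 1 the difference was -1.57 for the WT host and -1.45 for the sOVA host, and within row 2 it was -2.05 and -2.54.

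**Figure D1:**
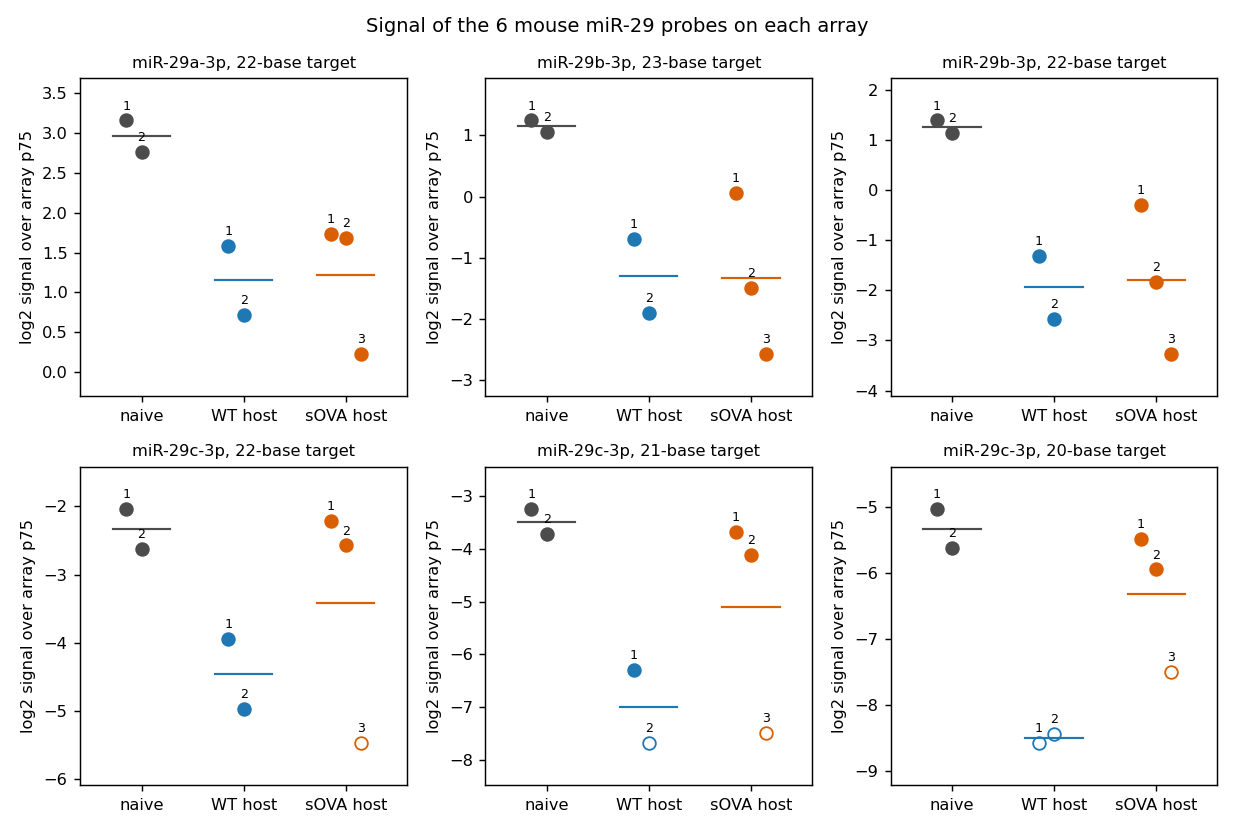
Each panel shows 1 probe of mouse miR-29, with log2 signal relative to the 75th percentile of the array on the vertical axis and the 3 groups on the horizontal axis. Points are single arrays numbered by replicate, open where the probe was not well above background, and lines are group means. miR-29a-3p and miR-29b-3p lie lower on every activated array than on both naive arrays, while miR-29c-3p on sOVA host replicates 1 and 2 lies close to the naive arrays.

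miR-29b-3p, the member made from both clusters, had the larger difference by its point estimate. Its 23-base probe gave 1.25 and 1.06 on the naive arrays, -0.69 and -1.89 in the WT host, and 0.06, -1.49 and -2.57 in the sOVA host. Again no activated array reached the naive level, but the sOVA host arrays spread widely. Group means were 1.15 ± 0.13 (SD, n = 2), -1.29 ± 0.85 (SD, n = 2) and -1.33 ± 1.33 (SD, n = 3). The difference of both hosts from naive was -2.46 ± 0.73 (SE), or 5.51-fold lower, which fell just short of the threshold (adjusted p = 0.0501, limma). It was -2.44 ± 0.86 (SE) for the WT host (adjusted p = 0.0995, limma) and -2.48 ± 0.79 (SE) for the sOVA host (adjusted p = 0.0688, limma). The difference of both hosts from naive passed without sOVA host replicate 3 (-2.15, adjusted p = 0.0287), and without sOVA host replicate 1 (-2.81, adjusted p = 0.0204), but not without the 2 dimmest arrays (-1.85, adjusted p = 0.0683, limma). All 3 comparisons passed with the row as a block, at adjusted p = 0.0359, 0.0205 and 0.0160 for the WT host, the sOVA host and both (limma). Within row 1 the difference from naive was -1.94 for the WT host and -1.96 for the sOVA host, and within row 2 it was -2.95 and -3.63.

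The shorter, 22-base probe for miR-29b-3p gave 1.39 and 1.13 on the naive arrays, -1.31 and -2.57 in the WT host, and -0.29, -1.83 and -3.27 in the sOVA host. It followed the 23-base probe over the 7 arrays (Pearson's r = 0.996, a description of probes that share a target). When probes were fitted without merging (401 probes tested), it fell by 3.13 on the log2 scale in activated cells (SE 0.80, adjusted p = 0.0315, limma), or 8.75-fold. In that fit the 23-base probe also passed, at adjusted p = 0.0477 (limma).

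miR-29c-3p, the member specific to the chromosome 1 cluster, did not follow the other members in all sOVA host samples. Its 22-base probe gave -2.04 and -2.62 on the naive arrays, -3.94 and -4.97 in the WT host, and -2.21, -2.57 and -5.47 in the sOVA host. The WT host arrays lay below the naive arrays, sOVA host replicates 1 and 2 lay within the naive range, and sOVA host replicate 3 was the lowest of all. On that array 0 of 7 spots were well above background, so the value is only a bound. Group means were -2.33 ± 0.41 (SD, n = 2), -4.46 ± 0.73 (SD, n = 2) and -3.42 ± 1.78 (SD, n = 3). No comparison with naive passed: the WT host differed by -2.13 (SE 1.1, adjusted p = 0.213), the sOVA host by -1.09 ± 1.00 (SE, adjusted p = 0.439) and both hosts together by -1.61 ± 0.92 (SE, adjusted p = 0.217, limma). With the row as a block these stayed short of the threshold (adjusted p = 0.0577, 0.120 and 0.0520, limma).

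The shorter probes of miR-29c-3p showed the same division of arrays. The 21-base probe stood at -3.25 and -3.72 on the naive arrays, at -3.68 and -4.11 on sOVA host replicates 1 and 2, and at -6.30 on WT host replicate 1. On the 2 dimmest arrays it was not well above background. The 20-base probe stood at -5.03 and -5.62 on the naive arrays and at -5.48 and -5.94 on sOVA host replicates 1 and 2. It was not well above background on either WT host array or on sOVA host replicate 3. Set against the lowest signals well above background, or the probe's own where higher, the 20-base probe was at least 2.62-fold below naive cells in the WT host. As it was detected on 0 of 2 WT host arrays and entered the fit of single probes through the naive arrays, no test is given for it. The 21-base probe was detected on each array of the naive group only. It entered the fit of single probes in the same way, so no test is given for it either.

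Counted together, 1 of 3 tested miR-29 features was called lower in activated hosts, where 9.06% of all 342 features were called lower. In the WT host 0 of 3 were called lower (5.85% of all), with 126 of the 342 features at an unadjusted p under 0.05, miR-29a-3p and miR-29b-3p among them. In the sOVA host 0 of 3 were called lower (5.56% of all), with 147 at an unadjusted p under 0.05, again with miR-29a-3p and miR-29b-3p. None was called higher in any comparison, where 18.7% of all features were called higher in activated hosts, 12.9% in the WT host and 15.5% in the sOVA host. The median difference of the 3 was -1.78 for activated hosts, -2.13 for the WT host and -1.75 for the sOVA host, beside medians over all features of 0.17, 0.27 and 0.11. Of the 342 features, 7 had a more negative difference in activated hosts than miR-29b-3p, 21 than miR-29a-3p and 27 than miR-29c-3p. Every WT host array lay below both naive arrays for all 3 features, as it did for 31.3% of all features. For the sOVA host this held for 2 of 3 (29.5% of all), and for all activated arrays for 2 of 3 (23.1% of all). The comparisons with naive share the naive arrays and are not independent of each other. Scaling to the 75th percentile over all probes moved the median over all features in activated hosts from 0.17 to -0.50, with 25 features called higher and 38 lower in place of 64 and 31. Under that scaling miR-29a-3p was at -2.45 (adjusted p = 0.0399) and miR-29b-3p at -3.13 (adjusted p = 0.0170, limma), and both were called lower.

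**Figure D2:**
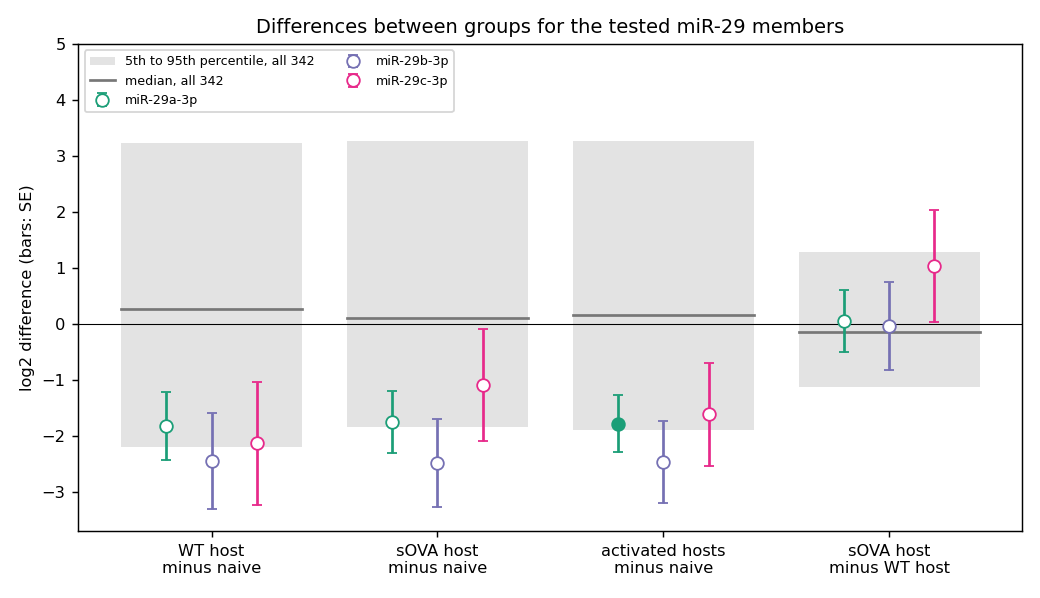
The vertical axis gives the log2 difference between groups for each of the 4 comparisons on the horizontal axis. Points are miR-29a-3p, miR-29b-3p and miR-29c-3p with their SE, filled where the adjusted p was under 0.05, and grey bars span the 5th to 95th percentile of all 342 features with their median as a line. All 9 differences from naive lie below the median of all features, and 1, miR-29a-3p in both hosts together, is filled.

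The comparison between the hosts asked whether T cells activated where ovalbumin is a self antigen differ from those activated in the wild type. For miR-29a-3p the sOVA host minus the WT host was 0.06 (95% interval -1.29 to 1.41, adjusted p = 0.979, limma). For miR-29b-3p it was -0.04 (interval -1.95 to 1.88, adjusted p = 0.991, limma). These intervals include differences of more than 1 log2 unit either way, so similar levels were not shown. For miR-29c-3p the difference was 1.04 (interval -1.39 to 3.47, adjusted p = 0.806, limma). With the row as a block the differences were -0.10, -0.23 and 0.76 for miR-29a-3p, miR-29b-3p and miR-29c-3p (adjusted p = 0.891, 0.860 and 0.595, limma). No feature of the 342 was called in either direction, with 41 at an unadjusted p under 0.05.

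The miR-29c-3p value moved with single arrays. It was 0.44 without sOVA host replicate 1, 0.62 without sOVA host replicate 2, 1.55 without WT host replicate 1 and 0.53 without WT host replicate 2, with no call (adjusted p between 0.910 and 0.997, limma). Without sOVA host replicate 3, miR-29c-3p was 2.07 log2 units higher in the sOVA host than in the WT host (SE 0.42, adjusted p = 0.0300, limma), where 12.1% of 346 features were called higher. Its difference from naive in the sOVA host was then -0.06 (adjusted p = 0.924, limma), against -2.13 in the WT host, which then passed (adjusted p = 0.0131, limma). miR-29a-3p and miR-29b-3p were 0.56 and 0.58 higher in the sOVA host without that array and did not pass (adjusted p = 0.304 and 0.587, limma). Within slide row 1, which holds sOVA host replicates 1 and 2, miR-29c-3p was 1.55 higher in the sOVA host than in the WT host, and within row 2, which holds replicate 3, it was 0.49 lower. Without the 2 dimmest arrays the difference was 1.55 and did not pass (adjusted p = 0.0811, limma).

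Differences between probes within an array are not changed by subtracting a single value per array, as was done here. The miR-29c-3p probe minus the miR-29a-3p probe was -5.20 and -5.38 on the naive arrays and -5.53 and -5.69 in the WT host, but -3.95 and -4.25 on sOVA host replicates 1 and 2. These 2 arrays were thus 1.51 higher than the WT host and 1.19 higher than naive on average, with no overlap, and the choice of these arrays allows no test. On sOVA host replicate 3 the value was -5.69, with miR-29c-3p not well above background. The miR-29c-3p signal amounted to 1.94% to 6.47% of the miR-29a-3p signal over the 7 arrays. Control probes with a single mismatch at target position 10, the position at which miR-29a-3p and miR-29c-3p differ, were present for 11 other targets. They kept a median of 4.24% of the signal of their matching probe, with a range of 0.0352% to 67.9% over the 11. By array, the miR-29c-3p share of the miR-29a-3p signal was 2.72% and 2.40% in naive cells and 2.17% and 1.94% in the WT host. In the sOVA host it was 6.47%, 5.25% and 1.94%. Whether miR-29a-3p contributed to the miR-29c-3p signal was not tested.

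The probes detected on all 7 arrays allowed 3 pairs to be tested between naive and activated arrays by an exact two-sided permutation test, for which 21 arrangements give a smallest possible p of 0.0476. miR-29a-3p minus the 22-base probe of miR-29b-3p was 1.77 and 1.63 on the naive arrays and 2.03 to 3.51 on the activated arrays. The mean difference between the groups was 1.34 (exact p = 0.0476, adjusted p = 0.0714 over the 3 pairs). With the 23-base probe it was 0.69 (exact p = 0.238, adjusted p = 0.238), as sOVA host replicate 1, at 1.67, lay below both naive arrays. The 22-base minus the 23-base probe of miR-29b-3p was 0.14 and 0.08 on the naive arrays and between -0.70 and -0.34 on the 5 activated arrays, a shift of -0.65 (exact p = 0.0476, adjusted p = 0.0714). No pair passed after adjustment. Quantile normalization, which changes probes of an array by unequal amounts, gave 0.89, 0.26 and -0.63 for the 3 pairs (adjusted p = 0.286, 0.619 and 0.143, exact permutation). The 22-base probe lost more signal than the 23-base probe on each activated array, most on the 2 dimmest, and the part of array brightness in this was not tested.

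**Figure D3:**
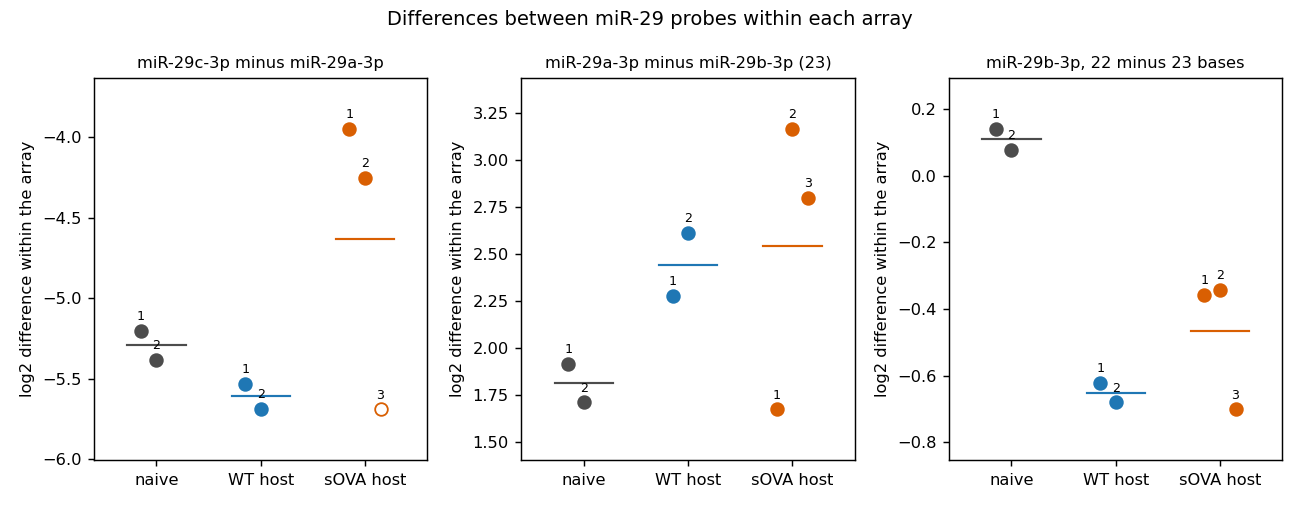
The vertical axis gives the log2 difference between 2 probes on the same array, and points are single arrays numbered by replicate, open where a probe was not well above background, with lines for group means. miR-29c-3p minus miR-29a-3p is -3.95 and -4.25 on sOVA host replicates 1 and 2 and -5.20 or less on all other arrays. The 22-base minus the 23-base probe of miR-29b-3p is above 0 on both naive arrays and below 0 on all 5 activated arrays.

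The other arms of the miR-29 hairpins, which are the strands that are usually discarded, were at or near background. Probes for miR-29a-5p, miR-29b-2-5p and miR-29c-5p were not well above background on any array. miR-29b-1-5p, from the chromosome 6 hairpin, is shown with its own seed in capitals since it was the other arm that could be tested.
miR-29b-1-5p: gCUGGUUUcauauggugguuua
Its brighter probe was at -6.91 and -7.12 on the naive arrays, -6.48 and -7.33 in the WT host, and -7.36, -6.80 and -7.33 in the sOVA host. It was well above background on both naive arrays, replicate 1 of the WT host and replicate 2 of the sOVA host. The groups overlapped, and the difference of activated hosts from naive was -0.02 ± 0.33 (SE, adjusted p = 0.965, limma). The probe entered the fit through the naive arrays only, as in neither host was it detected on each array. As a signal near background can also understate a change, the difference of -0.02 sets no limit on how far the arm moved.

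The 5 probes that carry the seed but no mouse miRNA differ from the nearest mouse miR-29 at 2 to 10 positions. Over the 7 arrays 0 of their 239 spots were well above background, with mean signals of 10.2 to 35.4 on the linear scale.

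Other miRNAs give the setting of the miR-29 values. Of 14 miRNAs listed as high in naive T cells, 10 were matched and tested, 3 were called lower in activated hosts (9.06% of all features) and none was called higher, with a median difference of -0.95. miR-26b-5p fell by 1.82 on the log2 scale (SE 0.25, adjusted p = 0.00466), and miR-181a-5p, known to set the sensitivity of the T cell receptor, fell by 2.49 (SE 0.51, adjusted p = 0.0179, limma). miR-101a-3p fell by 2.14 (SE 0.58, adjusted p = 0.0381, limma). Of 9 miRNAs linked to T helper 1 cells or interferon-gamma control, the functions for which miR-29 is known, all were tested, 3 were called higher (18.7% of all features) and none lower, with a median of 0.69. miR-21a-5p rose by 3.10 (SE 0.26, adjusted p = 0.000993), and miR-146a-5p, a brake on NF-kappaB signalling, rose by 3.27 (SE 0.69, adjusted p = 0.0196, limma). miR-155-5p, which promotes T helper 1 responses, rose by 3.34 (SE 0.74, adjusted p = 0.0228, limma). These named features are those of smallest p in each list, and not all listed miRNAs moved alike. miR-142a-3p, also on this second list, was lower on every activated array than on both naive arrays. miR-342-3p, also on the naive list, lay on both sides of the naive arrays in activated cells. In the single hosts, 2 of 10 of the naive list were called lower in the WT host (5.85% of all) and 1 of 10 in the sOVA host (5.56% of all). Of the other list, 1 of 9 was called higher in the WT host (12.9% of all) and 3 of 9 in the sOVA host (15.5% of all).

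The 5 features whose pattern over the 7 arrays was most like the mean of the 3 miR-29 features were picked by Pearson's r among 212 others detected on all arrays, as a description. The 3-feature mean was 0.79 and 0.40 on the naive arrays, -1.02 and -2.05 in the WT host, and -0.14, -0.79 and -2.60 in the sOVA host. Of the 5, miR-26a-5p (r = 0.970) was matched to a mouse miRNA, with -1.84 in activated hosts (adjusted p = 0.101, limma). The others were the probes UC1004845 (r = 0.981), UC1004805 (r = 0.957), UC1005005 (r = 0.940) and UC1005703 (r = 0.934). None of the 5 was called in activated hosts, where their differences lay between -1.84 and -0.95. The median r over the 212 was -0.39, and all points share the scaling of their array.

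**Figure D4:**
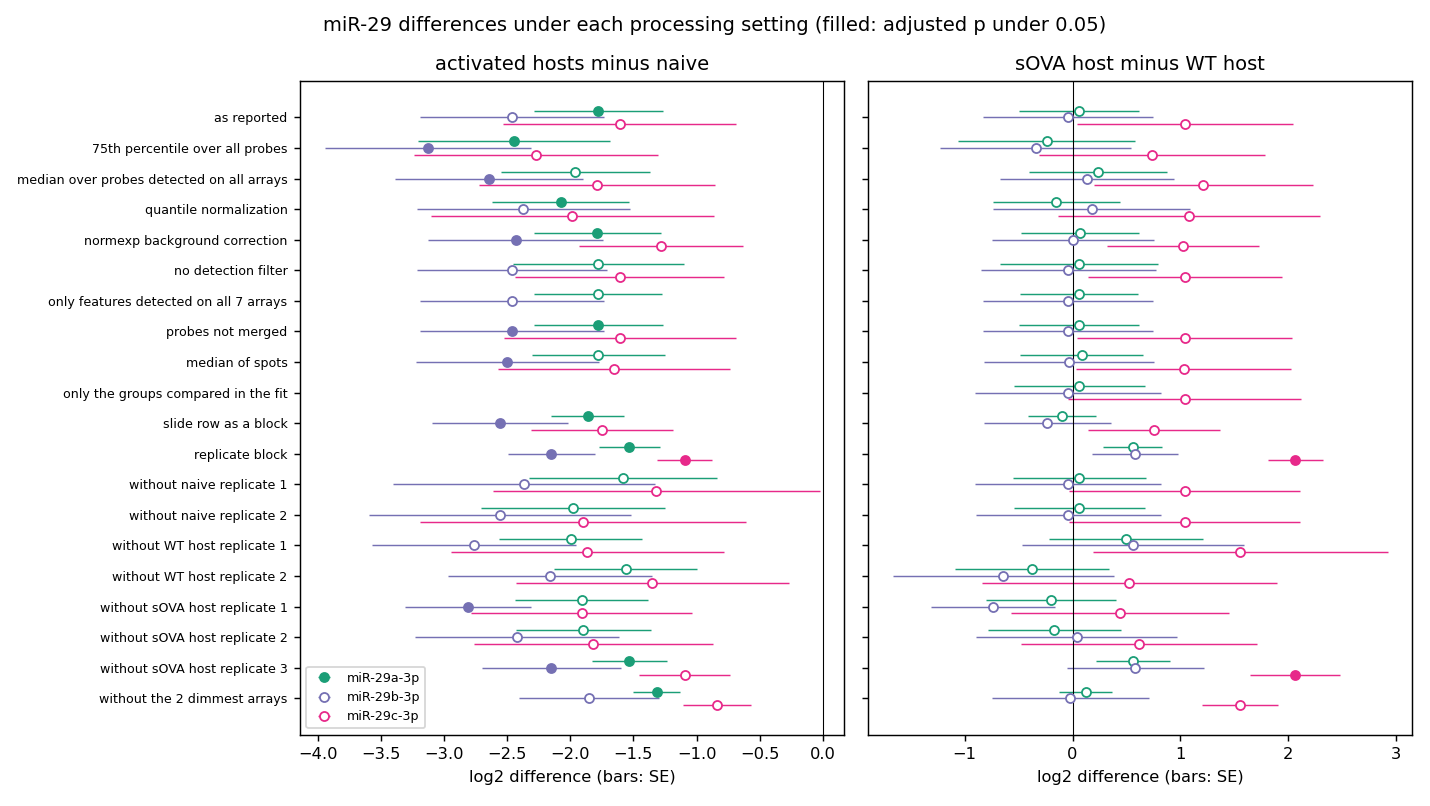
The horizontal axes give the log2 difference with its SE for miR-29a-3p, miR-29b-3p and miR-29c-3p, for activated hosts minus naive (left) and sOVA host minus WT host (right). Rows on the vertical axis are the reported processing and its alternatives, and filled points have an adjusted p under 0.05. All points on the left are below 0. On the right only miR-29c-3p is above 0 in each row where it was tested. It passes in 2, the replicate block and the fit without sOVA host replicate 3, which both set that array aside.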

How the data were processed

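Total RNA extracted with Trizol (250 ng, per the series' design text) received a Cy3 label from an Exiqon kit, per the labels' protocols. The deposited scanner files give a linear intensity per spot, which Agilent Feature Extraction had background-subtracted and detrended without normalizing between arrays. The file headers name version 9.5.1.1, the submitters' processing notes 10.6. The other deposited value table was not used, since none of its rows matched a member. The spot flags (well above background, outlier) were used as deposited by the authors.

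Each probe has 7 spots. Of 91826 probe spots, 1340 flagged as outliers were left out and none was saturated. Spot values were averaged as log2, and the 75th percentile over the 253 probes found on all 7 arrays was subtracted per array. A probe counted as detected where at least 50% of its spots were well above background. The target of a probe is the reverse complement without its last 10 T and its leading G. Probes with nested targets were merged (1753 features), and limma tested the 342 that some group had detected on each of its arrays (version 3.58.1, R 4.3.3; group means over all 7 arrays, Benjamini-Hochberg adjustment, threshold 0.05). Intervals are those of the moderated fit. Precision is limited by the number of arrays. Names come from RefSeq (GRCm38.p6): 613 of 1874 probes matched a mouse mature miRNA by their start.

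All members were named, with up to 3 features of each list by smallest p and the 5 nearest patterns. The members and lists were chosen with earlier results of these data known.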

Additional observations from a re-analysis of the deposited data

How the results depend on the processing

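Over the alternatives, all 3 features kept a negative difference from naive wherever tested. In activated hosts miR-29a-3p ranged from -2.45 to -1.32 (called in 8 of 18), miR-29b-3p from -3.13 to -1.85 (9 of 18) and miR-29c-3p from -2.27 to -0.84 (1 of 17). The number of the 3 called, against 1 as reported, was 2 with the percentile over all probes, 2 with normexp, 4 of 6 with probes not merged (among them 2 nested probes of miR-29b-3p and the 20-base probe), 2 with the slide row as a block, 0 without a detection filter and 0 over features detected on all 7 arrays. In the sOVA host it went from 0 to 2 with the percentile over all probes, 2 with the row block and 1 without the 2 dimmest arrays (chosen after seeing the data). In the WT host the number called went from 0 to 3 with only the groups compared in the fit (136 called in both directions). With the row block it was 2 (10.8% of all called lower). With probes not merged, it was 1 of 6, the 20-base probe, which was not detected there and is no support. Leaving out 1 array gave 0 to 2 called in activated hosts, 0 to 1 in the sOVA host, 0 to 3 in the WT host and 0 to 1 between hosts. Without either naive array, either WT host array or sOVA host replicate 2, none was called in activated hosts. A lone array was assumed to vary like the other groups. Between hosts, miR-29a-3p turned to -0.24 (percentile over all probes), -0.15 (quantile) and -0.10 (row block), and ranged from -0.37 to 0.56 with 1 array left out. There miR-29b-3p turned to 0.13 (median scaling), 0.18 (quantile) and 0.0039 (normexp), and ranged from -0.74 to 0.58 with 1 array left out. There miR-29c-3p ranged from 0.44 to 2.07, and only this 2.07 passed.

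Deviations of same-numbered arrays correlated between -0.60 and 0.35, and of same-row arrays between 0.18 and 0.61. Groups of 2 force equal and opposite values, and negative same-number ones involve sOVA host replicate 2, so pairing by replicate number was not decided. With the replicate block, 3 miR-29 features were called lower in the WT host (15.8% of all features). In the sOVA host 2 were called lower (10.2% of all), and in activated hosts 3 (17.5% of all). Between hosts 1 was called higher (5.26% of all), miR-29c-3p at 2.07 (adjusted p = 0.0276, limma), where miR-29b-3p was 0.58.

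Counts over all features varied by more than 1.5 times. In the WT host, 64 calls as reported became 39 with the percentile over all probes, 41 with normexp, 16 without a filter, 25 over features detected on all arrays, 136 with only the groups compared, 109 with the row block, 139 with the replicate block, 125 without the 2 dimmest arrays, and 12 to 160 leaving 1 array out. In the sOVA host, 72 became 25 (no filter), 34 (all arrays), 125 (row block), 156 (without the 2 dimmest) and 11 to 131. In activated hosts, 95 became 63 (percentile over all probes), 27, 42, 143, 144 (replicate block) and 158, and 13 to 160. Between hosts, 0 became 27 (replicate block), 49 (without the 2 dimmest arrays) and 0 to 70, the 70 without sOVA host replicate 3. With the percentile over all probes the median over all features moved from 0.27 to -0.24 in the WT host and from 0.11 to -0.70 in the sOVA host. The value table was not used. Signal over background limited the shorter probes of miR-29c-3p on the 2 dimmest arrays, and its 22-base probe on sOVA host replicate 3 only.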
